A study of Mus musculus with 12 samples.

Results

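The AP-1 family genes are described here in T cells that did or did not carry a functional STING. The 10 genes Fos, Fosb, Fosl2, Jun, Junb, Jund, Atf3, Batf, Batf2 and Batf3 were looked up by symbol and Ensembl ID, and all 10 were found among the 38924 gene IDs counted. Each of them also passed the filter on low counts, which kept 13811 genes. RNA sequencing covered 12 libraries in 4 groups of 3. T cells from spleens of C57BL/6 mice aged 8 to 12 weeks, labelled as CD4+ T cells and described in the study's methods as sorted naive cells, were driven to divide for 2 days by anti-CD3 and anti-CD28, kept for 1 day without these antibodies, and then cultured for 16 h with the solvent DMSO or with CMA (10-carboxymethyl-9-acridanone), a small-molecule agonist of mouse STING. The groups were WT cells with DMSO, WT cells with CMA, STINGgt/gt cells with DMSO and STINGgt/gt cells with CMA. The sample titles call the second genotype STING KO. In STINGgt/gt mice a missense mutation of Tmem173, which encodes STING, is carried in every cell of the animal, so the genotype contrast covers the history of the cells as well as the culture. The study calls the replicates biological, but the labels name no mouse or culture, so p-values measure the spread between libraries.

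AP-1 is a family of transcription factors that bind DNA as dimers through a basic region and a leucine zipper. Jun proteins can pair with each other, while Fos proteins bind as partners of a Jun protein. The small Batf proteins, which lack a transactivation domain, also pair with Jun proteins, and in T cells such dimers bind next to IRF4 or IRF8 at composite elements. In T cells AP-1 is known for its joint action with NFAT at cytokine genes after stimulation of the T cell receptor. Fos, Fosb, Jun, Junb and Atf3 belong to the genes that cells switch on rapidly after a stimulus, and the JNK, p38 and ERK kinases act on the proteins and on their transcription.

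The cells and labels were checked first. Between 27414450 and 43784910 reads were counted on genes per library. Tmem173 stood at 183 to 190 CPM (counts relative to the TMM-scaled library size) in WT cells with DMSO, at 296 to 316 with CMA, and at 168 to 184 in the 6 STINGgt/gt libraries, and a missense mutation need not alter its mRNA. The 7 T cell markers summed to 2261 to 2663 CPM over all libraries. Transcripts that mark other cells were present too and moved with the groups, although naive T cells had been sorted before culture. The 7 B cell markers summed to 897 to 973 CPM in WT with DMSO, 1281 to 1406 in WT with CMA and 450 to 483 in the STINGgt/gt libraries. The 7 conventional dendritic cell markers summed to 135 to 159 CPM in WT with DMSO, 168 to 173 in WT with CMA and 80.6 to 94.9 in STINGgt/gt. Within that list Zbtb46 went from 8.25 to 55.5 CPM, Flt3 from 9.69 to 16.6 and H2-Ab1 from 130.0 to 97.6 with CMA in WT, while Xcr1, Clec9a and Cd209a had at most 1 count in any library. In such bulk samples fewer cells of a type and less RNA per cell cannot be told apart.

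Junb was the most abundant member in every group when counts were set relative to transcript length (CPM per kb of merged exons, the scale used wherever 1 gene is compared with another). Its level was 236 ± 19.4 CPM per kb in WT cells with DMSO (SD, n = 3). Jund followed with 134, Fosl2 with 36.7, Batf with 36.5, Atf3 with 30.8, Jun with 22.0 and Batf3 with 11.7. The levels of Fosl2 and Batf overlapped between libraries, while the other neighbours in this order did not. Fos reached only 3.36 CPM per kb, and Fosb (0.316) and Batf2 (0.210) were the lowest. With CMA the order in WT cells changed, as Atf3 (75.0 CPM per kb) and Jun (69.6) moved ahead of Batf (34.2) and Fosl2 (31.4), and Fos (9.90) moved ahead of Batf3 (8.40). In the STINGgt/gt groups Atf3 ranked next after Junb and Jund with both treatments, at 28.9 and 26.9 CPM per kb, followed by Batf at 19.4 and 20.7, and with CMA the levels of Fosl2 and Jun overlapped there. The summed level of the 10 genes was 512 ± 33.0 CPM per kb in WT with DMSO and 628 ± 40.2 with CMA, against 414 ± 2.33 and 398 ± 19.1 in STINGgt/gt (SD, n = 3). Exon lengths come from GENCODE M21, whose gene models differ in places from the authors' gene positions. Junb has 2301 exon bases in M21 and reaches down to 84974484, against 84976909 in the authors' positions. Jund has 1668 and begins at 70698949, against 70697739. Levels per kb of both genes depend on this choice, and other lengths were not tried.

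**Figure D1:**
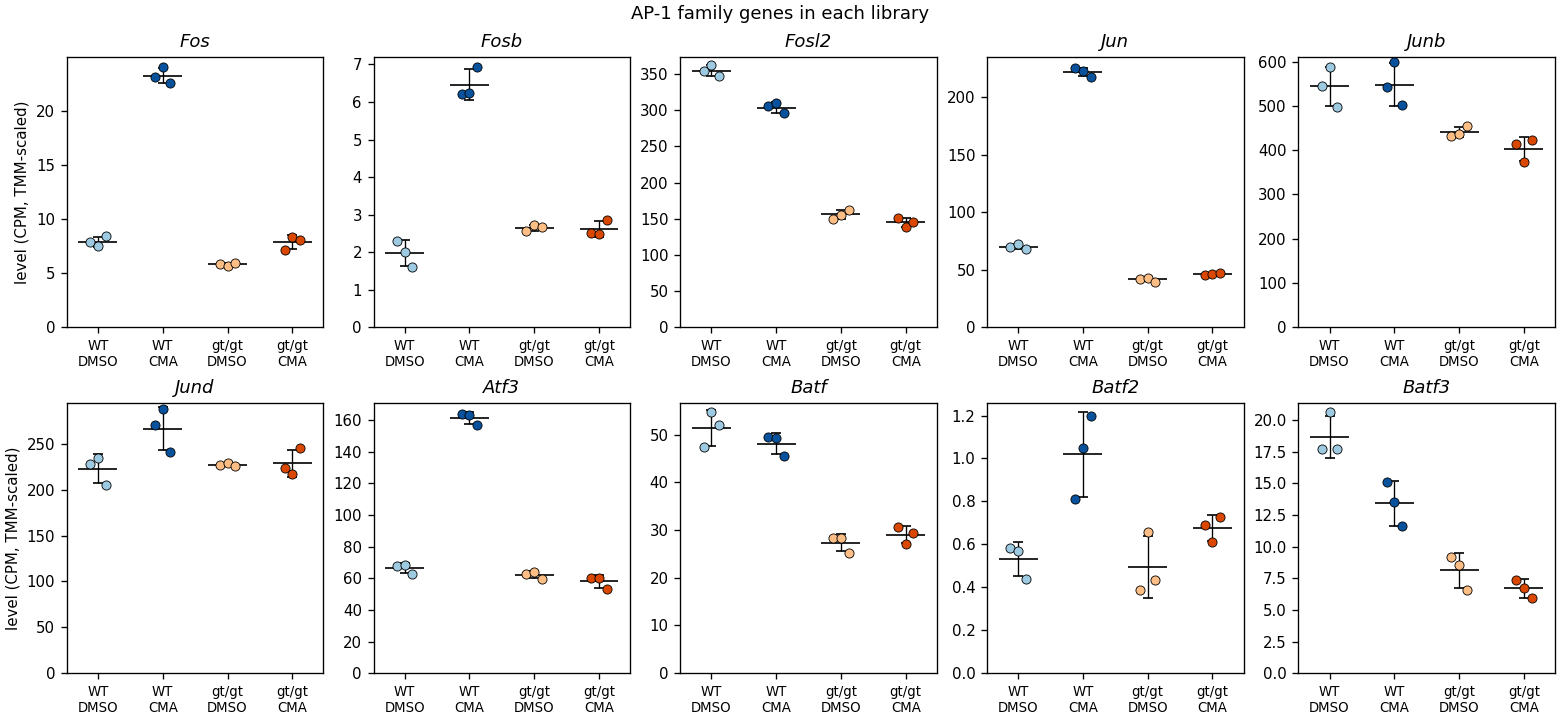
Level of each AP-1 gene in every library (y axis, CPM of the TMM-scaled library, starting at 0) in the 4 groups on the x axis. Points are libraries, lines are means and bars are SD with n = 3. Jun, Fos, Fosb and Atf3 stand apart in WT cells with CMA, where Jun lies between 218 and 226 CPM, and within each treatment the WT libraries lie above the STINGgt/gt libraries for Fos, Fosl2, Jun, Junb, Batf and Batf3.

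The comparison of CMA with DMSO in WT cells asked which members responded to the STING agonist. Of the 10 genes, 6 rose (Fos, Fosb, Jun, Jund, Atf3 and Batf2), 2 fell (Fosl2 and Batf3) and 2, Junb and Batf, did not pass the test. Fosb rose 3.33-fold, Jun 3.17-fold, Fos 2.93-fold and Atf3 2.44-fold, whereas the changes of Batf2, Jund, Fosl2 and Batf3 were below 2-fold. Genes were called at an adjusted p under 0.05 by the quasi-likelihood test of edgeR, with p-values adjusted after Benjamini and Hochberg across all genes tested. CMA moved much of the transcriptome, as 33.0% of all tested genes rose and 37.4% fell at this threshold. The median log2 fold change was 0.61 over the 10 genes and -0.04 over all genes tested. The same comparison in STINGgt/gt cells called 1 of the 10 genes, Fos, against a background of 0.398% higher and 0.920% lower.

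The sequences upstream of the 4 genes with the largest increases are shown so that the regions next to their start sites can be read beside the values. Each is the 250 bases before the RefSeq start in GRCm38.p6, written 5′ to 3′ on the gene's strand. Capitals mark matches, on either strand, to 3 of the motifs searched, which are the kappaB motif, the core TGACG of the cAMP response element, and the octamer TGACATCA. The last pair of motifs was added after the sequences had been read.
Jun, chr4:95052223-95052472, minus strand: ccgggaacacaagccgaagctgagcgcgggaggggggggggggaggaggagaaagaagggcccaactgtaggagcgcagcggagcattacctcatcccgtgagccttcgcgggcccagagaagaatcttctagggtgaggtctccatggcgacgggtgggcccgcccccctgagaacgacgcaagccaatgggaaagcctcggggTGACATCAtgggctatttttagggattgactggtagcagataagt
Fos, chr12:85473640-85473889, plus strand: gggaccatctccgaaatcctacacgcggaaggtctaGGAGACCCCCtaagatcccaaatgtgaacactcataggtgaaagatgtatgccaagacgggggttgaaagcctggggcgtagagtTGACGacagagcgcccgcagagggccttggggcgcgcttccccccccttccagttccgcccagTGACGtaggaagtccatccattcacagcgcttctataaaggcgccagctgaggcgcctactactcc
Fosb, chr7:19310046-19310295, minus strand: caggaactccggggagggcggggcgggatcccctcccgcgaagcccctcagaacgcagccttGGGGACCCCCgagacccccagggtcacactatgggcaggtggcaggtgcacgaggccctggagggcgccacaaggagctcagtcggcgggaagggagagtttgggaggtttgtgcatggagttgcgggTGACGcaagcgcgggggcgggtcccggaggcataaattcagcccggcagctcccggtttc
Atf3, chr1:191183334-191183583, minus strand: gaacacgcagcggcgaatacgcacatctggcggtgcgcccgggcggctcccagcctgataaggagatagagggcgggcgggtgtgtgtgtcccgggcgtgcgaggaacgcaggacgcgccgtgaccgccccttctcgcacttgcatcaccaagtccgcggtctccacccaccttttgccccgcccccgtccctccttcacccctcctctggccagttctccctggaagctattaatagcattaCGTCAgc

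A window was found for 9 of the 10 genes. The octamer TGACATCA, a variant of the cAMP response element, began 45 bases before the start of Jun, and 2.93% of the 32851 windows searched hold it. The core TGACG began 66 and 129 bases before the start of Fos, 60 bases before that of Fosb and 7 bases before that of Atf3, where it reads CGTCA on the gene's strand. The windows of Junb and Batf held this core as well, so that 5 of the 9 windows had a match, against 17.8% of all windows. Both TGACG and TGACATCA were chosen after these sequences had been read. Their presence in these windows therefore cannot be weighed against the shares over all windows. A kappaB match lay 214 bases before the start of Fos and 188 bases before that of Fosb. Fosl2, which fell with CMA, had 2 overlapping kappaB matches at 181 and 182 bases. These 3 of 9 windows stand beside 3.90% of all windows. The interferon-stimulated response core, GAAA followed by any 2 bases and GAAA, was found before 1 of the 9 genes, Fosl2, and in 2.98% of all windows. None of the 9 windows held the full AP-1 site TGANTCA (6.75% of all windows), the full cAMP response element TGACGTCA (1.55%), which contains the core TGACG, or a CArG box (1.47%). The median GC content of all windows was 52.4%, while 7 of the 9 windows were above it (58.4% to 76.0%) and those of Jund (47.6%) and Batf (46.4%) below. For Jund the annotations disagree, as its window ends at 70697738 while GENCODE M21 begins the gene at 70698949. Whether this window adjoins the start used in these cells was not tested. The part of GC content in the shares of the kappaB motif and of TGACG was not tested. These are matches of letters only, and no binding was measured.

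Jun (ENSMUSG00000052684, chromosome 4 of GRCm38, 95049034 to 95052222, 1 exon) encodes c-Jun, the strongest activator among the Jun proteins. Its 3 WT libraries with DMSO read 69.8, 72.6 and 67.8 CPM, and its 3 with CMA read 226, 223 and 218. The STINGgt/gt libraries read 42.2, 43.1 and 39.5 with DMSO and 45.1, 45.8 and 46.9 with CMA. The WT libraries with CMA were far above all others, and in both genotypes the CMA libraries lay above the DMSO libraries. In WT the log2 fold change was 1.66 (standard error, SE, 0.044, edgeR adjusted p = 8.92e-15). In STINGgt/gt it was 0.14 (95% interval 0.05 to 0.24, edgeR adjusted p = 0.163), so this small difference did not pass the adjusted threshold. The log2 effect was 1.52 larger in WT than in STINGgt/gt (edgeR adjusted p of the difference = 7.41e-12). An antisense gene, Junos, shares 232 bases with the exon of Jun. The study's methods name a stranded library kit, but the strand setting of the counting is not given in the sources used here.

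Fos (ENSMUSG00000021250, chromosome 12, 85473890 to 85477273, 4 exons) encodes c-Fos, which is induced transiently by many stimuli and acts with Jun proteins. Its levels were 7.87, 7.48 and 8.39 CPM in WT with DMSO and 23.1, 24.1 and 22.6 with CMA, from counts between 216 and 829 per library. The DMSO libraries of STINGgt/gt cells gave 5.87, 5.67 and 5.95, and the CMA libraries gave 7.13, 8.37 and 8.11. No group overlapped its counterpart in the other treatment, and the WT libraries with CMA were the highest. The log2 fold change was 1.55 in WT (SE 0.072, edgeR adjusted p = 9.35e-12) and 0.44 in STINGgt/gt (SE 0.080, edgeR adjusted p = 0.0112). Fos passed the threshold in both genotypes, and its log2 effect was 1.12 larger in WT (edgeR adjusted p of the difference = 2.10e-07). The call in STINGgt/gt was lost in 4 of the fits that left out 1 library, those without DMSO replicate 1 or 2 or CMA replicate 2 or 3 of that genotype, with adjusted p between 0.0552 and 0.0750. It was also lost in the fit with a replicate block by library name (log2 fold change 0.36, edgeR adjusted p = 0.218). In that fit replicate 2 of both STINGgt/gt groups stood alone, so the effect rested on replicates 1 and 3.

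Fosb (ENSMUSG00000003545, chromosome 7, 19302721 to 19310045) encodes FosB, a second rapidly induced Fos protein, and was expressed at a low level. The WT libraries read 2.29, 2.01 and 1.61 CPM with DMSO and 6.22, 6.23 and 6.93 with CMA. The STINGgt/gt libraries read 2.55, 2.71 and 2.68 with DMSO and 2.50, 2.49 and 2.86 with CMA. There were 60 to 223 counts per library over all groups. In WT the treatments were clearly separated, and in STINGgt/gt they overlapped. The log2 fold change was 1.74 in WT (SE 0.12, edgeR adjusted p = 2.05e-09), the largest of the 10 genes. Without WT DMSO replicate 3 the value of Fosb was 1.60, below those of Jun (1.65) and Fos (1.61). In STINGgt/gt the log2 fold change of Fosb was -0.02 with a 95% interval from -0.28 to 0.25 (edgeR adjusted p = 0.974). The difference between the effects was 1.75 (edgeR adjusted p = 3.58e-07).

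Atf3 (ENSMUSG00000026628, chromosome 1, 191170296 to 191183340) encodes a stress-induced factor that can repress as a homodimer and also pairs with Jun proteins. It stood at 67.9, 68.4 and 62.6 CPM in WT with DMSO and at 164, 164 and 157 with CMA. The STINGgt/gt libraries read 62.8, 64.2 and 59.7 with DMSO and 60.2, 60.3 and 53.5 with CMA. The 9 libraries other than those of WT with CMA read between 53.5 and 68.4. Its log2 fold change was 1.29 in WT (SE 0.053, edgeR adjusted p = 2.24e-12) and -0.10 in STINGgt/gt (95% interval -0.22 to 0.01, edgeR adjusted p = 0.450). The effects differed by 1.39 (edgeR adjusted p = 2.01e-10).

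Jund and Batf2 rose less, or from fewer reads. Jund (ENSMUSG00000071076, chromosome 8, 70697739 to 70700616) encodes JunD, which most cells express without a stimulus. Of its 1668 annotated exon bases, 877 are shared with Gm11175 on the opposite strand, which had 6 to 22 counts per library. It read 229, 235 and 206 CPM in WT with DMSO, 270, 289 and 242 in WT with CMA, 227, 230 and 226 in STINGgt/gt with DMSO and 224, 218 and 246 in STINGgt/gt with CMA. The lowest WT library with CMA lay just above the highest with DMSO. Its log2 fold change was 0.26 in WT (SE 0.065, edgeR adjusted p = 0.00195) and 0.01 in STINGgt/gt (95% interval -0.13 to 0.15, edgeR adjusted p = 0.974). The difference of 0.25 passed the threshold (edgeR adjusted p = 0.0273), but not in 5 of the fits that left out 1 library, where the adjusted p ran to 0.0909 without WT CMA replicate 2. Batf2 (ENSMUSG00000039699, chromosome 19, 6140983 to 6172476), the family member known for its induction by interferon in myeloid cells, had only 14 to 38 counts per library. Its WT levels were 0.583, 0.570 and 0.439 CPM with DMSO and 0.809, 1.05 and 1.198 with CMA. STINGgt/gt cells gave 0.387, 0.657 and 0.436 with DMSO and 0.692, 0.611 and 0.728 with CMA, which overlapped. In WT this was a log2 fold change of 0.95 (SE 0.24, edgeR adjusted p = 0.00186), and its difference from the STINGgt/gt effect, 0.51, had a wide 95% interval from -0.23 to 1.24 (edgeR adjusted p = 0.223). Arl2, which shares 51 exon bases with Batf2 on the opposite strand, had 471 to 915 counts per library and a WT log2 fold change of -0.49.

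**Figure D2:**
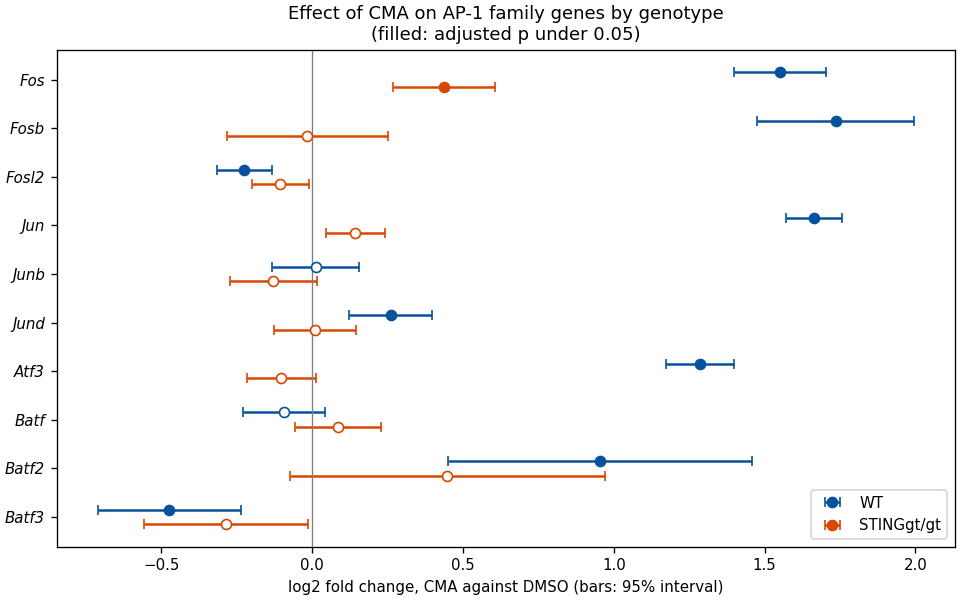
Log2 fold change of each AP-1 gene with CMA against DMSO (x axis) in WT cells (blue) and STINGgt/gt cells (orange), with 95% intervals from edgeR's test and filled points for an adjusted p under 0.05. Fosb, Jun, Fos and Atf3 lie between 1.29 and 1.74 in WT, while the only filled point of STINGgt/gt is Fos at 0.44.

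Fosl2 and Batf3 were the 2 members that fell with CMA in WT. Fosl2 (ENSMUSG00000029135, chromosome 5, 32136472 to 32157831) encodes Fra-2, a Fos protein without the strong transactivation domain of c-Fos, and was the Fos gene with the most RNA in these cells. It decreased from 355, 362 and 347 CPM to 306, 310 and 296 in WT, with no overlap. In STINGgt/gt cells it read 150.0, 156 and 162 CPM with DMSO and 151, 139 and 145 with CMA, and the treatments overlapped. CMA changed it by a log2 value of -0.22 in WT (SE 0.044, edgeR adjusted p = 0.000229) and -0.11 in STINGgt/gt (edgeR adjusted p = 0.315). Batf3 (ENSMUSG00000026630, chromosome 1, 191098414 to 191108943), known for its part in the development of cross-presenting dendritic cells and expressed in activated T cells too, went from 17.7, 20.6 and 17.7 CPM to 15.1, 13.5 and 11.6 in WT. STINGgt/gt libraries read 9.20, 8.57 and 6.60 with DMSO and 7.40, 6.74 and 5.95 with CMA, which overlapped. This gave log2 fold changes of -0.47 in WT (SE 0.11, edgeR adjusted p = 0.00130) and -0.29 in STINGgt/gt (edgeR adjusted p = 0.358). For neither gene did the effects of the genotypes differ past the threshold. The difference was -0.12 for Fosl2 (95% interval -0.25 to 0.01, edgeR adjusted p = 0.112) and -0.19 for Batf3 (95% interval -0.55 to 0.17, edgeR adjusted p = 0.363).

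Junb and Batf did not pass the test with CMA in either genotype. Junb (ENSMUSG00000052837, chromosome 8, 84976909 to 84978748) encodes JunB, which helper T cells use together with Batf. It read 546, 588 and 498 CPM in WT with DMSO and 542, 599 and 503 with CMA, so that replicate 2 was the highest and replicate 3 the lowest with both treatments. In STINGgt/gt cells it read 433, 436 and 453 with DMSO and 413, 373 and 423 with CMA, and there all CMA libraries lay below all DMSO libraries. The log2 fold change was 0.01 in WT (95% interval -0.13 to 0.16, edgeR adjusted p = 0.892) and -0.13 in STINGgt/gt (95% interval -0.27 to 0.02, edgeR adjusted p = 0.453). Prdx2 shares 173 exon bases with Junb on the opposite strand and had 4333 to 6444 counts per library. Batf (ENSMUSG00000034266, chromosome 12, 85686669 to 85709087), needed for the Th17 programme and for T cell effector function, read 47.3, 54.7 and 52.0 CPM in WT with DMSO and 49.5, 49.4 and 45.5 with CMA. STINGgt/gt libraries read 28.3, 28.3 and 25.2 with DMSO and 30.7, 27.1 and 29.3 with CMA. Both pairs of groups overlapped, and the log2 fold changes were -0.09 in WT (95% interval -0.23 to 0.04, edgeR adjusted p = 0.197) and 0.09 in STINGgt/gt (95% interval -0.06 to 0.23, edgeR adjusted p = 0.640).

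The test of the difference between the CMA effects called 5 of the 10 genes, all with the larger effect in WT (Fos, Fosb, Jun, Jund and Atf3). Over all genes 27.2% had a more positive and 31.6% a more negative effect in WT. None of the 10 was called with a more negative effect, and none had a negative difference with an unadjusted p under 0.05, while DESeq2 and limma-voom likewise called 0 in that direction. With the replicate block by library name 1 was called, Batf, with a difference of -0.26 (edgeR adjusted p = 0.0335). That block left fewer informative libraries in STINGgt/gt. In STINGgt/gt cells the single call, Fos, came from edgeR, DESeq2 and limma-voom alike. That call was lost with the replicate block by library name (log2 fold change 0.36, edgeR adjusted p = 0.218) and in fits that left out 1 library. There 4 of the 10 genes had an unadjusted p under 0.05 (Fos and Jun higher, Fosl2 and Batf3 lower). Over all genes 0.398% were called higher and 0.920% lower in STINGgt/gt, and 5.94% were higher and 7.02% lower at an unadjusted p under 0.05.

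The make-up of the subfamilies by RNA level moved with CMA in WT cells. Jun made up 5.62% ± 0.239 of the summed CPM per kb of the 3 Jun genes in WT with DMSO and 14.9% ± 0.988 with CMA (SD, n = 3). Over the same groups the share of Junb went from 60.3% to 50.9%, and that of Jund was 34.1% and 34.2%. In STINGgt/gt cells Jun held 3.83% ± 0.205 with DMSO and 4.42% ± 0.233 with CMA (SD, n = 3). Among Fos, Fosb and Fosl2, with Fosl1 left out, Fosl2 held 90.9% in WT with DMSO and 74.2% with CMA, while Fos went from 8.35% ± 0.610 to 23.4% ± 0.251 and Fosb from 0.782% to 2.45% (SD, n = 3). In STINGgt/gt the share of Fos was 13.1% ± 0.461 with DMSO and 17.9% ± 1.78 with CMA (SD, n = 3). Summed over these 3 genes, the WT level was 40.3 CPM per kb with DMSO and 42.3 with CMA, and the STINGgt/gt level was 19.0 and 18.7. Batf made up 75.4% to 82.2% of the Batf genes in the group means, Batf3 16.7% to 24.2%, and Batf2 at most 1.07%. These shares describe RNA and were not tested. Those of the Jun genes depend on the GENCODE M21 exon lengths of Junb and Jund, which differ from the authors' gene positions.

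**Figure D3:**
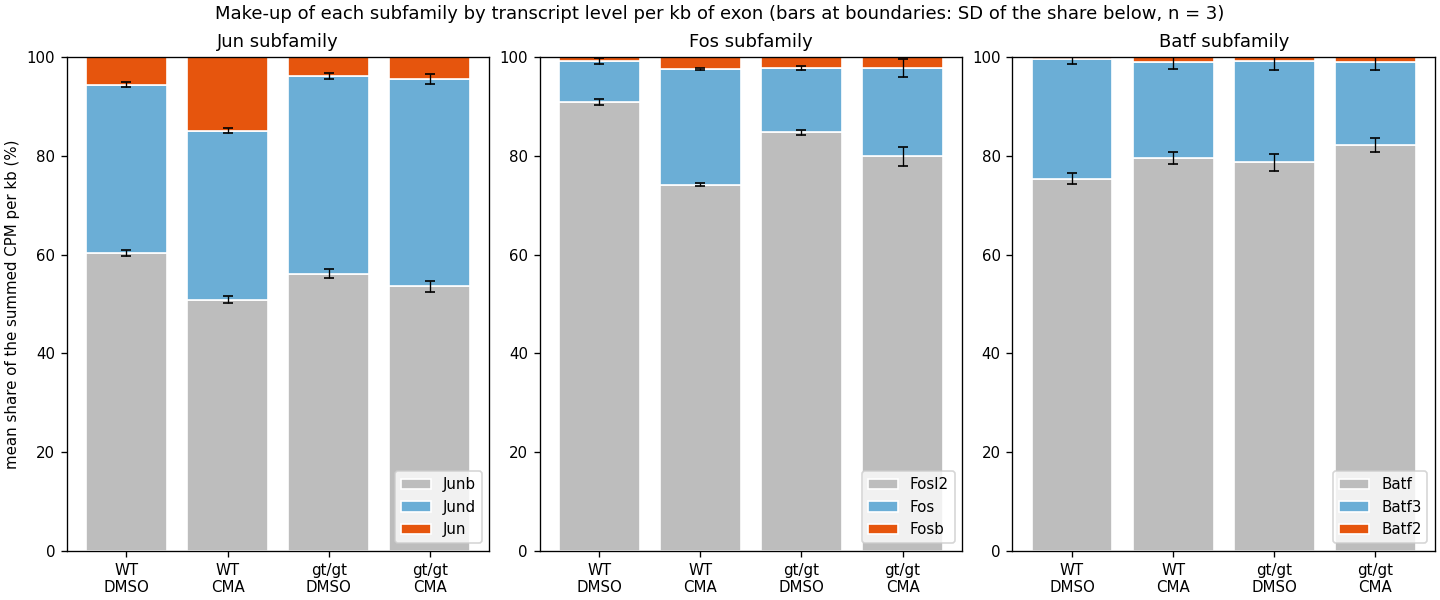
Mean share of each gene (y axis, percent of the summed CPM per kb of exon) within the Jun, Fos (without Fosl1) and Batf subfamilies in the 4 groups (x axis), with bars for the SD of the share below each boundary (n = 3). In WT cells with CMA the Jun segment grows to 14.9% and the Fos segment to 23.4%. Exon lengths are those of GENCODE M21.

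WT and STINGgt/gt cells were also compared within each treatment, which asks for differences present with and without the agonist. With DMSO alone 6 of the 10 genes were higher in WT (Fos, Fosl2, Jun, Junb, Batf and Batf3), 1 was lower (Fosb), and Jund, Atf3 and Batf2 did not pass the test. Over all genes 22.9% were higher and 19.8% lower in WT. The largest differences were those of Batf3, with a log2 difference of 1.19 (SE 0.12, edgeR adjusted p = 5.60e-07), Fosl2, with 1.19 (SE 0.045, edgeR adjusted p = 6.07e-12), and Batf, with 0.91 (SE 0.066, edgeR adjusted p = 1.44e-08). For 6 of the 10 genes (Fos, Fosl2, Jun, Junb, Batf and Batf3) the lowest WT library was above the highest STINGgt/gt library both with DMSO and with CMA, as it was for 16.3% of all genes. Jun differed by 0.75 (edgeR adjusted p = 1.57e-09), Fos by 0.45 (edgeR adjusted p = 0.000352) and Junb by 0.30 (edgeR adjusted p = 0.00182). Fosb was lower in WT by a log2 difference of -0.45 (edgeR adjusted p = 0.0151), a call that was lost without WT DMSO replicate 3 (edgeR adjusted p = 0.0948). The 95% intervals of the other 3 genes were -0.17 to 0.11 for Jund, -0.02 to 0.20 for Atf3 and -0.50 to 0.65 for Batf2.

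Transcripts of other cell types moved with this genotype difference. With DMSO all 7 B cell markers were higher in WT, as were 6 of 6 tested myeloid markers, 5 of 6 CD8 and NK cell markers and 3 of 4 tested conventional dendritic cell markers, whereas 0 of 7 T cell markers were higher and 2 were lower. The summed levels in WT and STINGgt/gt with DMSO were 897 to 973 against 450 to 468 CPM for the B cell list, 48.7 to 52.7 against 36.1 to 37.9 for the myeloid list, 64.7 to 69.1 against 28.0 to 29.2 for the CD8 and NK cell list, and 135 to 159 against 87.9 to 94.9 for the dendritic cell list. Xcr1 and Clec9a, which mark the dendritic cells that depend on Batf3, had at most 1 count in any library. The part of the other cells in the AP-1 values was not tested.

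With CMA all 10 genes were higher in WT than in STINGgt/gt, against 37.0% of all genes higher and 36.5% lower. None of the 10 was lower at an unadjusted p under 0.05, and DESeq2 called 9 higher and limma-voom 10. Jun showed the largest difference, 2.27 on the log2 scale (SE 0.045, edgeR adjusted p = 2.48e-16), followed by Fos with 1.56, Atf3 with 1.48, and Fosb was 2.47-fold higher in WT. Fosl2 differed by 1.07, Batf3 by 1.01, Batf by 0.73 and Junb by 0.44. The calls of Jund and Batf2 were less stable. Jund differed by 0.22 (edgeR adjusted p = 0.00567) with overlapping libraries, and the call was lost without WT CMA replicate 2 (edgeR adjusted p = 0.0574). Batf2 differed by 0.58 (edgeR adjusted p = 0.0221), and its call was lost without WT CMA replicate 2 or 3 or STINGgt/gt CMA replicate 2, with adjusted p up to 0.106, and with DESeq2 (adjusted p = 0.0746). This comparison shares its libraries with those above, so its values are not independent of them. Markers of other cells moved with it as well. All 7 B cell markers were higher in WT (median log2 difference 1.58), as were 5 of 6 tested myeloid markers (median 1.24) and 3 of 4 tested conventional dendritic cell markers. Of the 6 CD8 and NK cell markers 4 were higher and 2 lower, and of the 7 T cell markers 0 were higher and 4 lower. Their part in these AP-1 values was not tested.

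**Figure D4:**
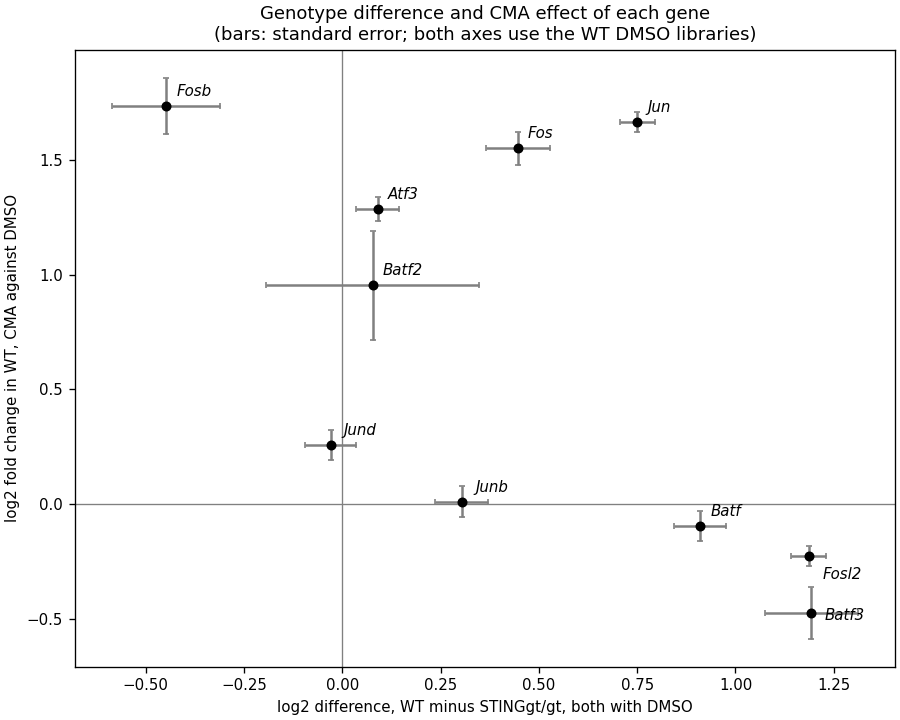
Each AP-1 gene by its log2 difference between WT and STINGgt/gt with DMSO (x axis) and its log2 fold change with CMA in WT (y axis), with standard errors from edgeR. Both axes use the WT DMSO libraries. Fosl2, Batf and Batf3 lie at 0.91 to 1.19 on the x axis and below 0 on the y axis, while Atf3 lies at 0.09 and 1.29.

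Over the 12 libraries the genes fell into patterns that can be described by the Pearson correlation of log2 CPM. The libraries share 4 groups, so these values describe how the group levels run together. Jun, Fos and Atf3 ran closely together, with r of 0.97 for Jun and Fos, 0.97 for Jun and Atf3 and 0.95 for Fos and Atf3. Fosl2 was most like Batf (r = 0.97) and Batf3 (r = 0.95) among the members, and Fosb and Batf3 had an r of 0.03. For each member the 2 most similar genes were taken among 11198 genes with a mean count of at least 50 (11199 for Batf2). Socs3, a feedback inhibitor of cytokine signalling (r = 0.9989), and the small GTPase gene Gem (0.9961) were nearest to Fosl2. Socs3 stood at 230 ± 9.38 CPM in WT with DMSO, 177 ± 8.88 in WT with CMA, 46.0 ± 2.45 in STINGgt/gt with DMSO and 38.6 ± 2.03 in STINGgt/gt with CMA (SD, n = 3). Casz1 and Tmem140 were nearest to Jun (r = 0.9978 and 0.9975), and Casz1 went from 20.9 ± 0.621 to 72.3 ± 4.94 CPM in WT with CMA (SD, n = 3). Tnfrsf13b and Podnl1 were nearest to Atf3 (both 0.9969). Zc3h12d and Kalrn were nearest to Fos (0.9913 and 0.9905), and Ssbp2 and Tom1l2 to Fosb (0.9921 and 0.9895). Ccnd3, which encodes cyclin D3, and Gramd1a were nearest to Junb (0.9861 and 0.9761), Gm12534 and Mgll to Batf (0.9925 and 0.9883), and Ehd4 and Ifng, the interferon gamma gene, to Batf3 (0.9854 and 0.9775). The values were lower for Jund, with Nek8 and Ppm1m (0.9171 and 0.9121), and for Batf2, with AA415398 and Tmem38a (0.9309 and 0.9248).

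Other genes of the pathway were read from lists, whose counts stand beside the shares over all genes of 33.0% higher and 37.4% lower with CMA in WT and of 0.398% and 0.920% in STINGgt/gt. Among other bZIP genes, 4 of the 23 tested rose and 10 fell with CMA in WT, with a median log2 fold change of -0.01 against -0.04 over all genes. Those named are the 3 with the smallest p. Maf, a lineage factor of helper T cells, fell from 9.74 ± 1.41 to 4.03 ± 0.347 CPM (SD, n = 3), by 1.29 in log2 (edgeR adjusted p = 4.69e-08). Nfil3, a repressor of the same class, fell by 1.16 (edgeR adjusted p = 1.06e-12), and Xbp1, a factor of the unfolded protein response, fell by 0.63 (edgeR adjusted p = 1.72e-09). In STINGgt/gt 0 of the 23 rose and 2 fell, Xbp1 by 0.22 (edgeR adjusted p = 0.0213) and Ddit3, a stress-response gene named here after its values were seen, by 0.33 (edgeR adjusted p = 0.0214). Fosl1, the remaining Fos family gene, was chosen after its values were seen. It fell in WT from 8.21 ± 0.736 to 3.35 ± 0.563 CPM (SD, n = 3), by 1.28 in log2 (edgeR adjusted p = 8.33e-08), and read 6.82 ± 0.449 and 7.15 ± 0.654 CPM in STINGgt/gt (SD, n = 3). The 4 Fos genes changed in opposite directions in WT, with Fos and Fosb higher and Fosl1 and Fosl2 lower with CMA.

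The kinases and phosphatases that act on AP-1 were measured as RNA only. Of 17 tested MAP kinase genes 8 rose and 5 fell in WT (median 0.06, against 33.0% and 37.4% of all genes), and 0 of 17 were called in STINGgt/gt, where 3 had an unadjusted p under 0.05. At the 0.398% and 0.920% called over all genes, a list of this size would hold few calls or none there. Map3k8, which encodes the kinase Tpl2 upstream of ERK, rose from 39.8 ± 1.52 to 103 ± 2.04 CPM (SD, n = 3) in WT, by 1.38 in log2 (edgeR adjusted p = 2.58e-13). Mapk14, which encodes p38α, rose by 0.76 (edgeR adjusted p = 7.18e-11), while Map2k6, a kinase that activates p38, fell by 1.64 (edgeR adjusted p = 1.23e-11). Among the 10 MAP kinase phosphatases 5 rose and 3 fell (median 0.24), and 0 were called in STINGgt/gt, with 2 at an unadjusted p under 0.05. Dusp1, itself an immediate early gene, rose from 17.2 ± 0.760 to 63.6 ± 1.68 CPM (SD, n = 3), by 1.89 in log2 (edgeR adjusted p = 1.11e-14). Dusp4 rose by 0.82 (edgeR adjusted p = 1.25e-09). Dusp6, which acts on ERK and is commonly read as an ERK target gene, fell by 1.31 (edgeR adjusted p = 1.98e-11).

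Of the other immediate early genes 5 of the 13 tested rose with CMA in WT and 6 fell, with a median of -0.03, near the shares over all genes (33.0% and 37.4%). Egr2 fell from 53.9 ± 1.55 to 11.5 ± 0.892 CPM (SD, n = 3), by 2.23 in log2 (edgeR adjusted p = 6.27e-14). Egr1, often induced together with Fos, fell by 1.37 (edgeR adjusted p = 2.65e-12), whereas the nuclear receptor gene Nr4a2 rose by 0.85 (edgeR adjusted p = 7.21e-10). In STINGgt/gt cells 2 of the 13 were higher and 1 lower, and Egr2 was among the higher, with a log2 fold change of 0.40 (edgeR adjusted p = 0.00271). The effects on Egr2 differed between the genotypes by -2.62 (edgeR adjusted p = 9.72e-13).

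Of the 8 genes for DNA-binding partners of AP-1, 1 rose and 4 fell in WT (median -0.21, with 33.0% and 37.4% over all genes). Irf8 went from 549 ± 19.3 to 372 ± 13.8 CPM (SD, n = 3), a fall by 0.56 in log2 (edgeR adjusted p = 6.67e-09), and Nfatc1 fell by 0.48 (edgeR adjusted p = 2.70e-07). Runx3 rose by 0.64 (edgeR adjusted p = 6.18e-09). In STINGgt/gt 1 of the 8 was called, Irf8, which moved in the other direction and rose from 688 ± 14.7 to 795 ± 25.5 CPM (SD, n = 3), by 0.21 in log2 (edgeR adjusted p = 0.0242). Of the 17 T cell genes known as AP-1 targets, 5 were higher and 7 lower with CMA in WT (median -0.18), also near the shares over all genes. Il2, a growth factor gene whose promoter holds well-studied joint sites of NFAT and AP-1, rose from 3.40 ± 0.297 to 20.9 ± 2.53 CPM (SD, n = 3), by 2.63 in log2 (edgeR adjusted p = 1.22e-11). It was also called in STINGgt/gt, from 5.50 ± 0.581 to 9.74 ± 1.33 CPM (SD, n = 3), by 0.82 (edgeR adjusted p = 0.00243). The other of the 17 called there was Gzmb, which fell by 0.40 (edgeR adjusted p = 0.00317). Cd69, an early activation marker, rose by 1.03 (edgeR adjusted p = 4.86e-11) and Ifng fell by 0.73 (edgeR adjusted p = 5.19e-07) in WT. With DMSO, 13 of these 17 genes were higher and 4 lower in WT than in STINGgt/gt, against 22.9% and 19.8% of all genes, with a median log2 difference of 1.32 against -0.0018 over all genes. Ifng read 56.8 ± 0.593 CPM in WT cells against 11.9 ± 0.850 in STINGgt/gt cells (SD, n = 3), while Il2 and Cd69 were among the 4 lower in WT, with log2 differences of -0.71 and -0.46. Markers of other cells were also higher in WT with DMSO, 7 of 7 for B cells and 5 of 6 for CD8 and NK cells. The same held for 6 of 6 tested myeloid and 3 of 4 tested conventional dendritic cell markers. Of the 7 T cell markers 0 were higher and 2 lower. The part of other cells in the values of these targets was not tested.

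**Figure D5:**
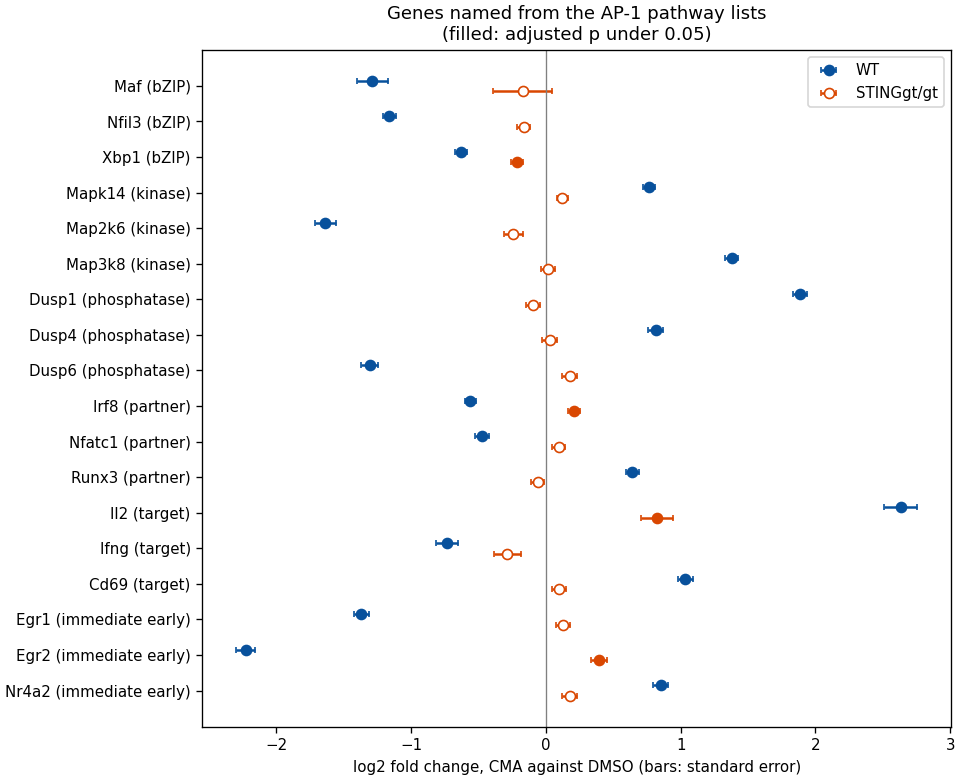
Log2 fold change with CMA against DMSO (x axis) of the genes named from the AP-1 pathway lists, in WT (blue) and STINGgt/gt (orange), with standard errors and filled points for an adjusted p under 0.05. In WT the values run from -2.23 (Egr2) to 2.63 (Il2), with rising and falling genes in each list apart from the other bZIP genes, whose 3 named genes all fell.

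Genes of heat shock and handling stress were read in the same WT comparison. Of 10 tested, 6 rose and 3 fell (median 0.38), against 33.0% and 37.4% of all genes. Hspa1b went from 6.67 ± 0.601 to 31.9 ± 1.199 CPM and Hspa1a from 5.41 ± 0.285 to 18.9 ± 2.56 (SD, n = 3), while Hspd1, a mitochondrial chaperone gene, fell from 811 ± 65.7 to 423 ± 22.0 (SD, n = 3). In STINGgt/gt 0 of the 10 were called, with 2 at an unadjusted p under 0.05, where 0.398% of all genes rose and 0.920% fell. Against the same WT shares of 33.0% and 37.4%, 5 of 7 B cell markers rose and 0 fell, 1 of 7 T cell markers rose and 4 fell, and 0 of 6 CD8 and NK cell markers rose and 4 fell. Of the myeloid markers 1 of 6 tested rose and 3 fell, and of the conventional dendritic cell markers 2 of 4 tested rose and 2 fell. The part of stress or of other cells in the AP-1 values was not tested.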

How the data were processed

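The authors trimmed reads with cutadapt 1.3, aligned them with STAR 2.4.0f1 and counted them with HTSeq 0.6.1, and RSEM 1.2.16 and the build GRCm38 are also named, per the submitters' processing notes. They deposited raw counts per Ensembl gene for 12 libraries and a table of log2 expression values, used here for gene positions and 1 alternative fit. The strand setting and annotation of the counting are not given in the sources used here. Alignments that were not unique (27.8% to 30.3% of entries), reads on no gene (4.86% to 7.16%) and ambiguous reads (0.594% to 0.635%) stayed out of library sizes. Replicate pairs differed by more than sampling noise (chi-square per degree of freedom 2.63 to 29.9).

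From the counts, edgeR 4.0.16 (R 4.3.3; TMM, filterByExpr, glmQLFit, glmQLFTest) fitted the 4 groups in 1 model without a block, over 13811 genes, with Benjamini-Hochberg adjustment and a threshold of 0.05. The 95% intervals use the t distribution with the test's degrees of freedom. CPM per kb uses merged exon lengths of GENCODE M21. Alternatives were DESeq2 1.42.0, limma-voom and limma 3.58.1 on the log2 table, other scalings, filters and thresholds, replicate blocks and leaving out each library. On simulated counts with 200 of 13587 genes changed in WT, edgeR recovered 200 with 13 false calls and called 0 genes in unchanged STINGgt/gt, where DESeq2 called 3. In the real WT comparison 33.0% of genes rose and 37.4% fell, so these counts do not carry over to it. With 3 libraries per group, an exact two-sided permutation test cannot go below 0.1. Counting error, depth and 3 libraries limit the precision of Batf2 and Fosb.

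The members, lists and tests were chosen with earlier results of these data known. Named list genes are at most 3 per list with the smallest p in WT and a mean count of at least 50. Promoter windows come from RefSeq (GRCm38.p6).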

Additional observations from a re-analysis of the deposited data

Results flagged for a closer look

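For 5 genes the response to CMA was not the same in both genotypes by edgeR's test of the difference itself, which singled them out. Over all genes 27.2% had a more positive and 31.6% a more negative effect in WT. The log2 effect was larger in WT by 1.75 for Fosb, 1.52 for Jun, 1.39 for Atf3, 1.12 for Fos and 0.25 for Jund. The call of Jund was lost in 8 of 23 alternatives, while those of the other 4 held in all 23. The 8 were both stricter thresholds, library-size scaling, and the fits without WT CMA replicate 1 or 2, STINGgt/gt DMSO replicate 2 or STINGgt/gt CMA replicate 1 or 2, with edgeR adjusted p up to 0.0909. The WT libraries with CMA lay above all other libraries for Fosb, Jun, Atf3 and Fos, while those of Jund overlapped the STINGgt/gt libraries with CMA.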

How the results depend on the processing

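Of 1169 values of the 10 genes under the alternatives, over 50 comparisons, 1131 stayed on the same side of the threshold, 36 no longer passed it and 2 newly passed it. No called value changed sign, but 10 values that were not called did, 3 for Junb with CMA in WT, 4 for Fosb and 1 for Jund with CMA in STINGgt/gt, and 1 each for Jund and Batf2 between genotypes with DMSO. A 2-fold minimum, by its construction, left 0 genes lower with CMA in WT, 0 higher with CMA in STINGgt/gt, 2 higher and 0 lower in WT with DMSO, and 6 higher in WT with CMA. An adjusted p under 0.01 left 0 higher with CMA in STINGgt/gt and 0 lower in WT with DMSO. With 1 library left out, the number higher in STINGgt/gt with CMA ran from 0 to 1 (Fos), and the number lower in WT with DMSO from 0 to 1 (Fosb). The deviations of DMSO and CMA libraries with 1 number correlated at 0.0019 to 0.1319, and the main model did not pair these libraries. Such low values cannot exclude that they share a source. Names of same-numbered DMSO and CMA libraries begin with the same digit, except for replicate 2 of STINGgt/gt. A replicate block gave 6 higher and 2 lower with CMA in WT, and the difference of the CMA effect of Junb newly passed (0.14, edgeR adjusted p = 0.0428). With the replicate block by library name 0 genes were higher in STINGgt/gt with CMA, Fos having an adjusted p of 0.218 (edgeR), and 1 gene, Batf, had a more negative effect in WT (-0.26, edgeR adjusted p = 0.0335). In this block DMSO replicate 2 and CMA replicate 2 of STINGgt/gt each stood alone, so its STINGgt/gt effect rests on replicates 1 and 3. The cause of these changes was not tested. Library-size scaling ended the call of the difference for Jund (edgeR adjusted p = 0.0558). WT against STINGgt/gt was not run with the block by library name, and the difference of effects was not run on 2 groups alone. The p-values rest on 3 libraries per group.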
